A study of Drosophila melanogaster with 4 samples.

Results

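The cytochrome P450 family of the adult male abdomen was followed here through every gene of the count tables whose symbol begins with Cyp and a digit. That rule found 83 of the 13955 genes counted. One of its members, *Cyp1*, carries a P450-like symbol but encodes a cyclophilin, and is given apart at the end, which leaves 82 P450 genes. *Cyp4g1* was not analysed here.

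P450 enzymes are heme-thiolate monooxygenases that insert oxygen into small lipophilic molecules. In insects they detoxify plant compounds and insecticides, make and break down ecdysteroids, and modify fatty acids and hydrocarbons. Microsomal P450 enzymes take electrons from the reductase Cpr, with help from cytochrome b5, whereas those in mitochondria use a ferredoxin and its reductase, and every P450 needs a heme. By sequence, insect families fall into the CYP2, CYP3, CYP4 and mitochondrial clans. The CYP3 and CYP4 clans hold most of the genes linked to detoxification, and oenocytes, the hepatocyte-like cells under the cuticle, use P450 chemistry to make the hydrocarbons that waterproof the fly.

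Nuclei were profiled by droplet-based snRNA-seq, where a count is a unique molecular identifier (UMI) and stands for 1 captured transcript. In *oenots>tsc1,tsc2* males the driver PromE-Gal4, active in oenocytes, expressed UAS-Tsc1 and UAS-Tsc2, whose products together restrain TOR, and in *oenots>EGFP* males it expressed UAS-2xEGFP. All flies were adult males of w1118 background that carried PromE-Gal4, tub-Gal80ts and their UAS transgenes heterozygously. Per the labels they lived at 18 °C on standard food and spent the last 4 days at 29 °C, where the repressor Gal80 stops working. For over-expression the paper's general methods instead describe a last stay on a high-sugar diet, and which food these flies had is not settled here. Each genotype had 2 libraries, and each library pooled 40 abdomens freed of intestine and male reproductive organs, so the spread between libraries is the spread between pools. The genotypes also differ in their transgene insertions and the stocks these came from, which cannot be told apart from the overexpression itself. The libraries of each genotype were also deposited as a data set of their own, and the paper corrected for batch effects when it joined them. A difference between the data sets cannot be told apart from the genotype in any comparison of genotypes below.

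The libraries held 7594 and 2267 nuclei for *oenots>tsc1,tsc2* and 7213 and 8067 for *oenots>EGFP*, with a median of 372 to 468 UMIs per nucleus and 12601994 UMIs in all. Between 15 and 77 cell barcodes were shared by any pair of libraries. The second *oenots>tsc1,tsc2* library stood apart, with the fewest nuclei and with 31.5% of them in the oenocyte cluster and 43.5% in the adipose cluster, against 18.5% to 21.8% and 61.2% to 67.8% in the other 3 libraries. Tissues came from 2 sources. Oenocyte nuclei (5386) and adipose nuclei (15527) are clusters of all libraries made without any Cyp gene. That clustering put muscle fibres and nuclei led by cuticle genes into 1 cluster, the joint muscle cluster. Muscle fibre nuclei (973) and epidermis-like nuclei (2801) were therefore assigned from the deposited control clusters, by the nearest control nuclei. The authors had made those clusters with all genes. A finer clustering, at resolution 0.4, named 10632 nuclei adipose and 3358 spermatogenic. Its main adipose cluster (10095) held 143 nuclei of the second *oenots>tsc1,tsc2* library, and a smaller adipose cluster (537) held 423. Whether the adipose nuclei of the 2 genotypes are of like kind was not tested.

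The study counts deposited clusters 0, 2, 4 and 8 as adipose tissue, 1 and 6 as oenocytes, and 3 and 5 as muscle. Measured against the other control nuclei, 10 of 11 oenocyte markers were at least 2-fold higher in clusters 1 and 6, and 8 of 9 adipose markers in cluster 0, but 4 of 9 in cluster 8, 1 of 9 in cluster 4 and 0 of 9 in cluster 2. Of 10 male tract markers, 3 were at least 2-fold higher in cluster 2 and 4 in cluster 8. All 15 muscle markers were at least 2-fold higher in cluster 5. In cluster 3 so were 6 of 8 epidermis markers, 8 of 15 muscle markers and 2 of 2 tracheal markers. Since cuticle genes led it, cluster 3 is called epidermis-like here, and whether it also holds tracheal nuclei was not tested. Cluster 7 is gut-like (8 of 8 markers), cluster 9 Malpighian tubule-like (7 of 7) and cluster 13 spermatogenic-like (6 of 7). The remaining clusters are given by number.

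Nearly the whole family was detectable. No UMI was found for *Cyp303a1*, *Cyp308a1*, *Cyp313a5* and *Cyp6a2*, which allows a level of up to 0.238 CPM (counts scaled to a common total) over all nuclei. A further 7 members had 1 to 9 UMIs, 11 had 10 or more but under 100, 51 had 100 or more but under 1000, and 9 had 1000 or more, for 50259 UMIs in all. That limit covers counting error only. *Cyp6a2* also overlaps *Epac* on its own strand, and reads that fit both genes may be counted for neither, so for *Cyp6a2* the limit may not hold. *Cyp12d1-p* and *Cyp12d1-d* are near-identical neighbours, so the split of reads between them is uncertain. The tests of tissue below could use 51 members (50 in the epidermis-like comparisons), those that passed the filter on low counts, which a gene can pass through a tissue where it is high.

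As a share of all transcripts, the 82 genes together, which leave out *Cyp4g1*, were low in oenocytes and high in the epidermis-like nuclei. The summed level of the 82 genes was 1590 ± 227 CPM in oenocyte nuclei, 3989 ± 542 CPM in adipose nuclei, 3964 ± 488 CPM in muscle fibre nuclei and 7646 ± 1029 CPM in epidermis-like nuclei (SD, n = 4 libraries). The lowest epidermis-like library, at 6253 CPM, lay above the highest adipose library at 4774 CPM, and the highest oenocyte library, at 1832 CPM, lay below the lowest adipose one at 3543 CPM. Adipose and muscle fibre nuclei overlapped. Among the 16 deposited control clusters, the oenocyte clusters again had the lowest means and cluster 3 the highest, with 1604 ± 236 CPM in cluster 1 and 1382 ± 129 CPM in cluster 6, and 7747 ± 195 CPM in cluster 3 (SD, n = 2 libraries). Much of the height of cluster 3 was *Cyp4aa1*, at 3642 ± 274 CPM.

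**Figure D1:**
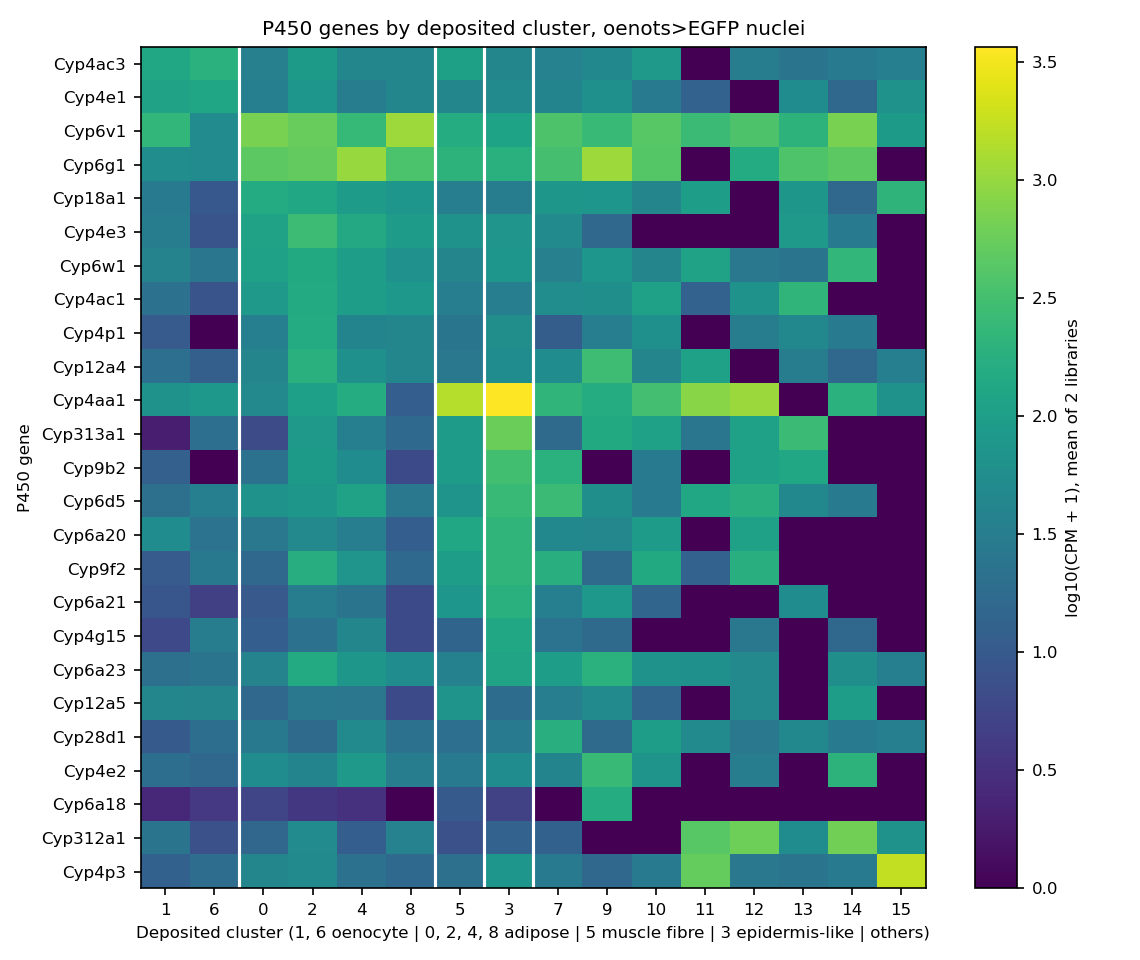
Mean level of 25 P450 genes in the 16 deposited clusters of the *oenots>EGFP* nuclei, as log10(CPM + 1) over 2 libraries, with clusters grouped by tissue along the x axis and genes down the y axis. *Cyp4aa1* stands at 3642 CPM in cluster 3, and *Cyp4ac3* and *Cyp4e1* are brightest in the oenocyte clusters 1 and 6. *Cyp4p3* is brightest in cluster 15, at a mean of 1695 CPM that rests mainly on the first library.

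In oenocytes few of the members, which leave out *Cyp4g1*, were enriched. Over the mean of the adipose and joint muscle clusters, 2 of the 51 members tested were called higher and 33 lower by edgeR's quasi-likelihood test (adjusted p under 0.05), where 18.3% of all 7054 genes tested were called higher and 23.5% lower. The median log2 fold change of the members was -1.09, against -0.03 over all genes. By clan, 15 of 23 CYP3 members, 13 of 19 CYP4 members, both CYP2 members and 3 of 7 mitochondrial members were called lower.

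The 2 members called higher were both of the CYP4 clan, whose enzymes in many animals hydroxylate the ends of fatty acid chains. *Cyp4ac3* (FlyBase Release 6, 2L:5268498-5270329) had 188.7 and 79.7 CPM in the oenocyte nuclei of *oenots>tsc1,tsc2* and 160.4 and 120.8 CPM in those of *oenots>EGFP*. In adipose nuclei it had 43.1 and 8.13 CPM in *oenots>tsc1,tsc2* and 46.8 and 49.04 CPM in *oenots>EGFP*, so that every oenocyte library lay above every adipose library. Its log2 fold change in oenocytes was 1.83 ± 0.30 (SE, edgeR adjusted p = 0.00024). Muscle fibre nuclei overlapped oenocytes, at 90.4 ± 32.0 CPM (SD, n = 4) for *Cyp4ac3*.

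*Cyp4e1* (2R:8447451-8449745) had 131.3 and 85.2 CPM in the oenocyte nuclei of *oenots>tsc1,tsc2* and 111.4 and 117.3 CPM in those of *oenots>EGFP*. Its levels elsewhere were 30.6 ± 12.7 CPM in adipose nuclei, 40.1 ± 15.6 CPM in muscle fibre nuclei and 34.1 ± 15.8 CPM in epidermis-like nuclei (SD, n = 4), and no library of these reached the lowest oenocyte value. The log2 fold change of *Cyp4e1* in oenocytes was 1.86 ± 0.19 (SE, edgeR adjusted p = 4.1e-06). In the annotation *Cyp4ac3* overlaps *tkv* and *Cyp4e1* overlaps *Mal-A1*, both of which are transcribed the other way. The sources used here do not state if reads were assigned by strand, so a part of these counts could belong to the partner gene.

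The members that fell most in oenocytes against the other tissues were of the CYP3 and CYP4 clans. *Cyp313a1* had 46.8 and 35.8 CPM in the oenocyte nuclei of *oenots>tsc1,tsc2* and 14.9 and 11.8 CPM in those of *oenots>EGFP*, with a log2 fold change of -3.09 ± 0.34 against the other tissues (SE, edgeR adjusted p = 8.2e-06). *Cyp4p1*, *Cyp9b2* and *Cyp4d21* fell by 2.95, 2.84 and 2.74 on the log2 scale in oenocytes against the other tissues. *Cyp4d21*, also called sxe1 for its sex-specific expression, was at 3.82 ± 0.84 CPM in oenocyte nuclei (SD, n = 4). Summed adipose markers, 9 genes, stood in oenocyte nuclei at 9.19% to 14.04% of their level in adipose nuclei. Of the 20 members called higher in adipose nuclei, oenocyte nuclei held between 10.5% (*Cyp4p1*) and 54.6% (*Cyp12b2*) of the adipose level, as medians over 4 libraries. The part of carried-over RNA in the low oenocyte levels was not tested.

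**Figure D2:**
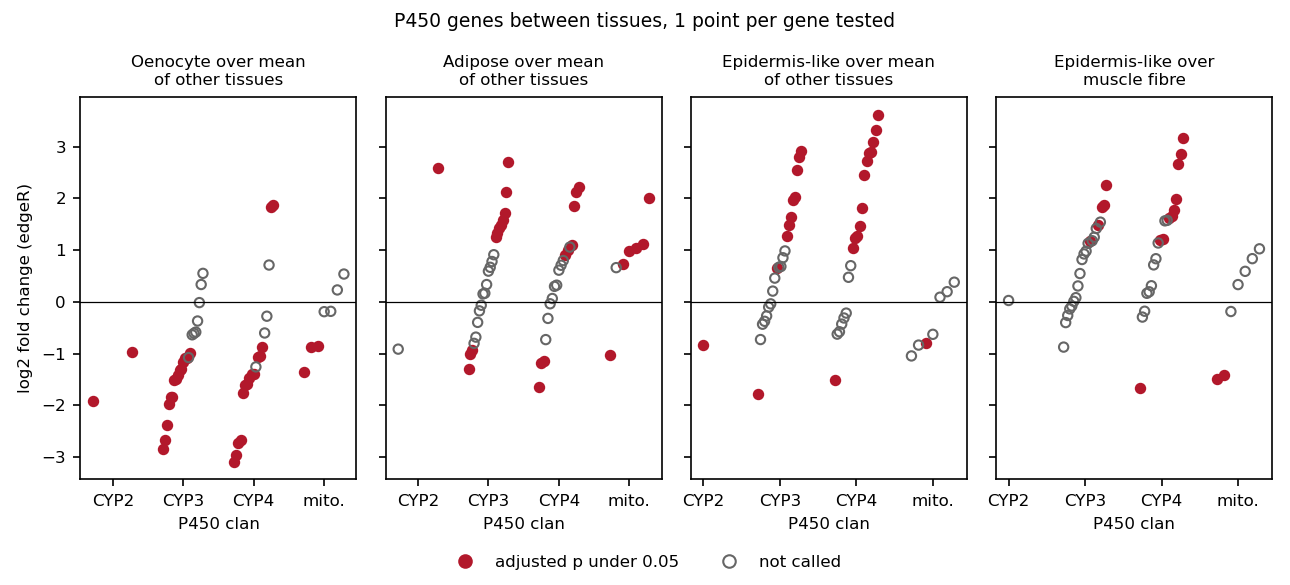
Log2 fold change (y axis, edgeR) of each P450 gene tested, by clan (x axis), for oenocyte, adipose and epidermis-like nuclei over the mean of the other tissues, and for epidermis-like over muscle fibre nuclei. Filled points are called at an adjusted p under 0.05: in oenocytes 2 lie above 0 and 33 below, in adipose nuclei 20 above and 7 below, in epidermis-like nuclei 21 above and 4 below.

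Several genes that serve P450 enzymes were high in oenocytes. Of 6 electron donors, *Cpr* and *Cyt-b5* were called higher in oenocytes over the other tissues and *Cyt-b5-r*, a reductase of cytochrome b5, was called lower, counts to be read against the 18.3% and 23.5% of all genes above. *Cpr*, which passes electrons from NADPH to every microsomal P450, had 5236 and 5799 CPM in the oenocyte nuclei of *oenots>tsc1,tsc2* and 2380 and 3670 CPM in those of *oenots>EGFP*, against 305.3 ± 42.6 CPM in adipose nuclei (SD, n = 4). The log2 fold change of *Cpr* in oenocytes was 3.82 ± 0.28 (SE, edgeR adjusted p = 1.9e-07), and the highest library of any other tissue, at 559 CPM, lay below the lowest oenocyte one.

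*Cyt-b5* stood at 5354 ± 617 CPM in oenocyte nuclei and 907 ± 172 CPM in adipose nuclei (SD, n = 4), with a log2 fold change of 2.51 ± 0.24 (SE, edgeR adjusted p = 2.8e-06). *Cyt-b5-r* was at 142.5 ± 26.4 CPM in oenocyte nuclei and 1613 ± 240 CPM in adipose nuclei, where it was called higher by 3.02 ± 0.20 on the log2 scale (SE, edgeR adjusted p = 2.6e-07). Of the mitochondrial chain the reductase *dare* was called higher in adipose nuclei (1.01 ± 0.25, SE, edgeR adjusted p = 0.0068), and the ferredoxins *Fdx1* and *Fdx2* were called in none of the tissues.

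So were genes of heme synthesis. Of 9 genes of that pathway 8 were tested and 6 were called higher, *Alas*, *Pbgs*, *Updo*, *Coprox*, *FeCH* and the porphobilinogen deaminase gene, with none lower and a median log2 fold change of 1.97 over the 8. Over all genes tested 18.3% were called higher and 23.5% lower. *Alas*, the first and rate-limiting enzyme, was at 1344 ± 167 CPM in oenocyte nuclei and 203 ± 58 CPM in adipose nuclei (SD, n = 4), a log2 fold change of 2.88 ± 0.24 over the other tissues (SE, edgeR adjusted p = 9.3e-07). The porphobilinogen deaminase gene, an early step of the pathway, had 3.23 ± 0.33 (SE, edgeR adjusted p = 4.4e-06). *Coprox* was the weakest of the 6, at 0.91 ± 0.28 (SE, edgeR adjusted p = 0.016). In the control libraries alone neither *Coprox* (0.54) nor *FeCH* (0.71) was called, and *Coprox* also lost its call without the first *oenots>tsc1,tsc2* library (0.66).

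The 2 deposited oenocyte clusters differed in several of these genes. In *oenots>EGFP* nuclei *Cpr* averaged 7118 CPM in cluster 6 and 1942 CPM in cluster 1, and *Cyt-b5* 16003 CPM in cluster 6 and 2973 CPM in cluster 1. *Alas* was at 2944 CPM in cluster 6 and 800 CPM in cluster 1, and *Updo* at 427 CPM in cluster 6 and 36.2 CPM in cluster 1. The P450 genes did not follow as a group, with *Cyp4ac3* at 190 ± 40 CPM in cluster 6 and 130 CPM in cluster 1, and *Cyp4e1* at 125 ± 10 CPM in cluster 6 and 112 CPM in cluster 1. These clusters were made with all genes, so the values are a description. Cluster 6 nuclei were also deeper, with a median of 680 and 744 UMIs in the 2 libraries, against 342 and 414 in cluster 1. The share of all genes that were higher in cluster 6 was not counted.

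**Figure D3:**
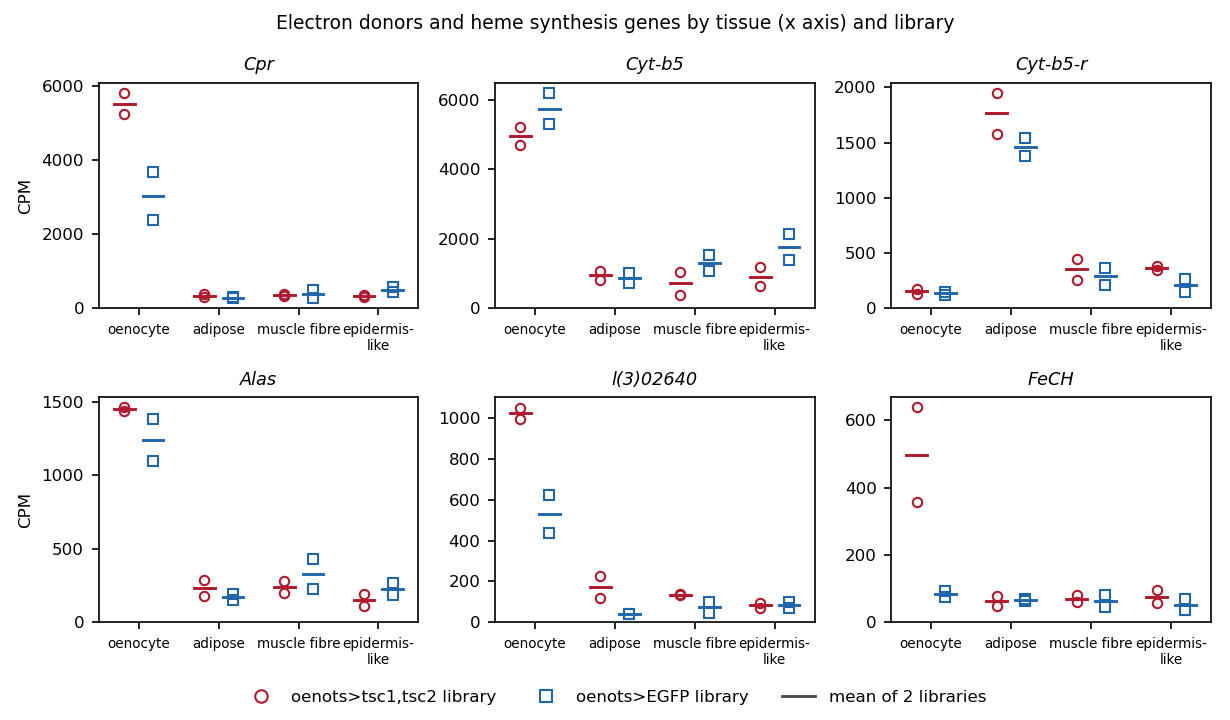
CPM (y axis) of 3 electron donors and 3 heme synthesis genes in each library by tissue (x axis), with *oenots>tsc1,tsc2* libraries as circles left of *oenots>EGFP* libraries as squares and lines for the mean of 2 libraries. *Cpr*, *Cyt-b5*, *Alas* and the porphobilinogen deaminase gene are highest in oenocyte nuclei, *Cyt-b5-r* in adipose nuclei, and *FeCH* in the oenocyte nuclei of *oenots>tsc1,tsc2*, at 357.8 and 638.0 CPM.

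In adipose nuclei many members were high, among them genes known from insecticide resistance and hormone breakdown. There 20 members were called higher and 7 lower over the mean of the oenocyte and joint muscle clusters, against 17.8% of all genes higher and 13.7% lower, and the median log2 fold change was 0.67 over the members and -0.05 over all genes. The higher ones were 8 of 23 CYP3, 6 of 19 CYP4, 5 of 7 mitochondrial and 1 of 2 CYP2 members. The call of *Cyp4g15* (1.01) was lost in 6 of 12 alternatives, with -0.49 in the transferred tissues, 0.70 in the control libraries alone, 1.38 in the *oenots>tsc1,tsc2* libraries alone, 1.04 without the first *oenots>EGFP* library and 0.66 without the second *oenots>tsc1,tsc2* library.

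*Cyp6g1* (2R:12185667-12188431), whose high expression is known for resistance to DDT and other insecticides, had 436.9 and 564.5 CPM in the adipose nuclei of *oenots>tsc1,tsc2* and 458.2 and 612.2 CPM in those of *oenots>EGFP*. Oenocyte nuclei had 77.9 ± 13.8 CPM and epidermis-like nuclei 148 ± 42 CPM of *Cyp6g1* (SD, n = 4), so that the adipose libraries lay above all others. The log2 fold change was 2.13 ± 0.22 (SE, edgeR adjusted p = 6.6e-06). *Cyp6g2* overlaps *Cyp6g1* on the opposite strand. Among control clusters *Cyp6g1* was also high in the Malpighian tubule-like cluster 9, at 1430 and 726 CPM in the 2 *oenots>EGFP* libraries.

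*Cyp6v1* (X:20657122-20661425) had 562.8 and 276.5 CPM in the adipose nuclei of *oenots>tsc1,tsc2* and 649.4 and 450.5 CPM in those of *oenots>EGFP*, and its log2 fold change was 2.70 ± 0.35 (SE, edgeR adjusted p = 4.2e-05). *Cyp18a1* (X:18688538-18693042), which inactivates ecdysteroids, had 224.4 and 139.9 CPM in the adipose nuclei of *oenots>tsc1,tsc2* and 121.7 and 144.4 CPM in those of *oenots>EGFP*. Its log2 fold change in adipose nuclei was 2.59 ± 0.21 (SE, edgeR adjusted p = 1e-06), with 27.5 ± 11.7 CPM in oenocyte nuclei and 28.9 ± 7.2 CPM in epidermis-like nuclei (SD, n = 4) for *Cyp18a1*. The opposite step of hormone metabolism was high in the same nuclei: *shd*, which turns ecdysone into the active hormone, was called higher there by 2.33 ± 0.35 (SE, edgeR adjusted p = 0.00016) at 34.5 ± 16.2 CPM (SD, n = 4). The other P450 genes of ecdysteroid synthesis with names outside the Cyp series could not be tested in any tissue contrast.

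*Cyp4e3* and *Cyp4ac1* were called higher in adipose nuclei by 2.22 ± 0.27 and 2.13 ± 0.26 (SE), and *Cyp49a1* of the mitochondrial clan by 2.00 ± 0.41. *Cyp6w1* followed with 1.58 ± 0.30 (SE, edgeR adjusted p = 0.00092), where its adipose libraries ranged between 78.7 and 274.6 CPM. Of the xenobiotic response factors only *cnc*, the Nrf2 homologue that induces detoxification genes, was called higher in adipose nuclei, at 2743 ± 404 CPM against 696 ± 284 CPM in oenocyte nuclei (SD, n = 4), a log2 fold change of 2.82 ± 0.25 (SE, edgeR adjusted p = 1.8e-06). *Keap1*, which holds it back, was called higher in oenocytes by 2.48 ± 0.25 (SE, edgeR adjusted p = 3.3e-06).

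Between clusters 2 and 0, which the study counts as adipose tissue, the members moved much as all genes did. In cluster 2 the marker check found 0 of 9 adipose markers higher, so its values may not be those of adipose nuclei. Of 53 members with at least 20 UMIs in clusters 0 and 2 together, 30 were higher in cluster 2 in both *oenots>EGFP* libraries and 9 lower in both, against 47.3% and 17.3% of all 7432 genes of that depth. *Cyp4e3* averaged 279 ± 25.5 CPM in cluster 2 (SD, n = 2) and 111 CPM in cluster 0, and *Cyp9f2* 167 CPM in cluster 2 and 14.4 CPM in cluster 0. *Cyp18a1* did not follow this, with 136 CPM in cluster 2 and 153 CPM in cluster 0. In cluster 8 *Cyp6v1* had 866 and 1315 CPM in the 2 libraries. The first held 280 nuclei of that cluster and the second 11 nuclei with 4562 UMIs, so the value rests mainly on the first.

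In the joint muscle cluster 17 members were called higher and 5 lower, against 19.5% and 20.2% of all genes, and with the transferred tissues, where epidermis-like nuclei are one of the other tissues, 6 of 50 were called higher in muscle fibres and 0 lower, against 10.2% and 4.99% of all genes.

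In epidermis-like nuclei, too, many members were high. Over the mean of the other tissues 21 of 50 members were called higher and 4 lower, against 16.8% and 16% of the 6812 genes tested, with a median log2 fold change of 0.66 over the members and -0.06 over all genes. The higher ones were 12 of 20 CYP4 and 9 of 22 CYP3 members, and none of the 7 mitochondrial members. Set directly against muscle fibre nuclei, 14 were called higher and 3 lower, where 7.57% and 8.03% of all genes were. Both tissues were assigned from deposited clusters made with the Cyp genes included. The calls of these contrasts, here and below, are therefore not independent of the assignment and are best read as a description.

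*Cyp4aa1* (2R:15942864-15947266) had 2609 and 5112 CPM in the epidermis-like nuclei of *oenots>tsc1,tsc2* and 3467 and 3920 CPM in those of *oenots>EGFP*. Muscle fibre nuclei had 1448 and 2372 CPM of *Cyp4aa1* in *oenots>tsc1,tsc2* and 1378 and 1841 CPM in *oenots>EGFP*, below every epidermis-like library. Oenocyte nuclei were at 132 ± 69 CPM and adipose nuclei at 238 ± 97 CPM (SD, n = 4). The log2 fold change of *Cyp4aa1* was 3.62 ± 0.28 over the mean of the other tissues (SE, edgeR adjusted p = 6.4e-09) and 1.20 ± 0.39 over muscle fibre nuclei (SE, edgeR adjusted p = 0.039). That second call was lost without either *oenots>EGFP* library, at 1.16 without the first and 1.29 without the second.

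A UMI of *Cyp4aa1* was found in 35.8% and 39.2% of the cluster 3 nuclei of the 2 *oenots>EGFP* libraries, at a median depth of 494 UMIs, and in 0.999% and 0.909% of their oenocyte nuclei, at 397 UMIs. Thinned to 200 UMIs per nucleus the means were 30.4% in cluster 3 and 0.796% in oenocytes. *Cyp4aa1* overlaps *COX6AL* on its own strand and *Strn-Mlck*, a muscle gene, on the other. Summed muscle markers stood in epidermis-like nuclei at 23.0% to 31.2% of their level in muscle fibre nuclei, and epidermis markers in muscle fibre nuclei at 18.7% to 37.7% of their level in epidermis-like nuclei. Whether the muscle fibre level of *Cyp4aa1* is its own was not tested.

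*Cyp313a1* (3R:14521049-14523064) had 683.8 and 850.4 CPM in the epidermis-like nuclei of *oenots>tsc1,tsc2* and 720.2 and 416.3 CPM in those of *oenots>EGFP*, with log2 fold changes of 3.32 ± 0.26 over the other tissues (SE, edgeR adjusted p = 7.4e-09) and 1.61 ± 0.36 over muscle fibre nuclei (SE, edgeR adjusted p = 0.004). Its muscle fibre libraries, at 75.5 to 524 CPM, overlapped the lowest epidermis-like one. *Cyp4g15* (X:11477058-11483233), of a subfamily with members that make cuticular hydrocarbons, had 96.5 and 149.7 CPM in the epidermis-like nuclei of *oenots>tsc1,tsc2* and 115.5 and 173.1 CPM in those of *oenots>EGFP*, against 15.9 ± 10.5 CPM in muscle fibre nuclei and 14.7 ± 3.4 CPM in oenocyte nuclei (SD, n = 4). The log2 fold change of *Cyp4g15* over muscle fibre nuclei was 3.17 ± 0.42 (SE, edgeR adjusted p = 3.8e-05). *Cyp318a1*, *Cyp6d5*, *Cyp9b2* and *Cyp9f2* were also higher than in muscle fibres, by 2.67, 2.25, 1.87 and 1.83 on the log2 scale.

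*Cyp6a20*, known for its part in male aggression, was called higher over the mean of the other tissues, by 2.03 ± 0.21 (SE, edgeR adjusted p = 3e-07). It had 191 ± 32.3 CPM in epidermis-like nuclei and 115.4 ± 15.8 CPM in muscle fibre nuclei (SD, n = 4), a difference of 0.82 ± 0.29 on the log2 scale that did not pass the test (SE, edgeR adjusted p = 0.068). Lower in epidermis-like than in muscle fibre nuclei were *Cyp4ac3* (-1.67 ± 0.47) and the mitochondrial members *Cyp12a5* (-1.49 ± 0.37) and *Cyp12b2* (-1.42 ± 0.36, SE, edgeR adjusted p = 0.0086). The call of *Cyp4ac3* was lost without the second *oenots>EGFP* library (-1.84) and without the first *oenots>tsc1,tsc2* library (-1.52).

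P450 genes often lie in rows of related copies. In this annotation 45 of the 82 members formed 16 runs of neighbours no more than 10 kb apart, the longest with 9 genes (2R:14871366-14903095). Neighbours did not always share a tissue. *Cyp4ac1*, *Cyp4ac2* and *Cyp4ac3* stand side by side on one strand (2L:5264001-5270329). *Cyp4ac1* was at 93.6 ± 17.4 CPM in adipose nuclei and 17.0 ± 7.7 CPM in oenocyte nuclei, whereas *Cyp4ac3* was at 36.8 ± 19.3 CPM in adipose nuclei and 137 ± 47 CPM in oenocyte nuclei (SD, n = 4). *Cyp4ac2* was called higher in adipose nuclei by 1.10 ± 0.26 (SE, edgeR adjusted p = 0.0049), as *Cyp4ac1* was, while *Cyp4ac3* was called lower there by -1.18 ± 0.32 (SE, edgeR adjusted p = 0.012).

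The same held for *Cyp4e2* and *Cyp4e1*, which adjoin on 2R. *Cyp4e2* was called higher in adipose nuclei (0.91 ± 0.27, SE, edgeR adjusted p = 0.018) and *Cyp4e1* lower (-1.15 ± 0.20, SE, edgeR adjusted p = 0.00061). On 3R the mitochondrial neighbours *Cyp12a4*, known from resistance to the insecticide lufenuron, and *Cyp12a5* parted likewise, with 1.04 ± 0.29 for *Cyp12a4* and -1.03 ± 0.24 for *Cyp12a5* in adipose nuclei. In the run of 9, *Cyp6a22* was called higher in adipose nuclei (1.48 ± 0.17) and *Cyp6a20*, *Cyp6a21* and *Cyp6a23* in epidermis-like nuclei (2.03, 2.92 and 1.49 on the log2 scale). These sets were picked after their values were seen.

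**Figure D4:**
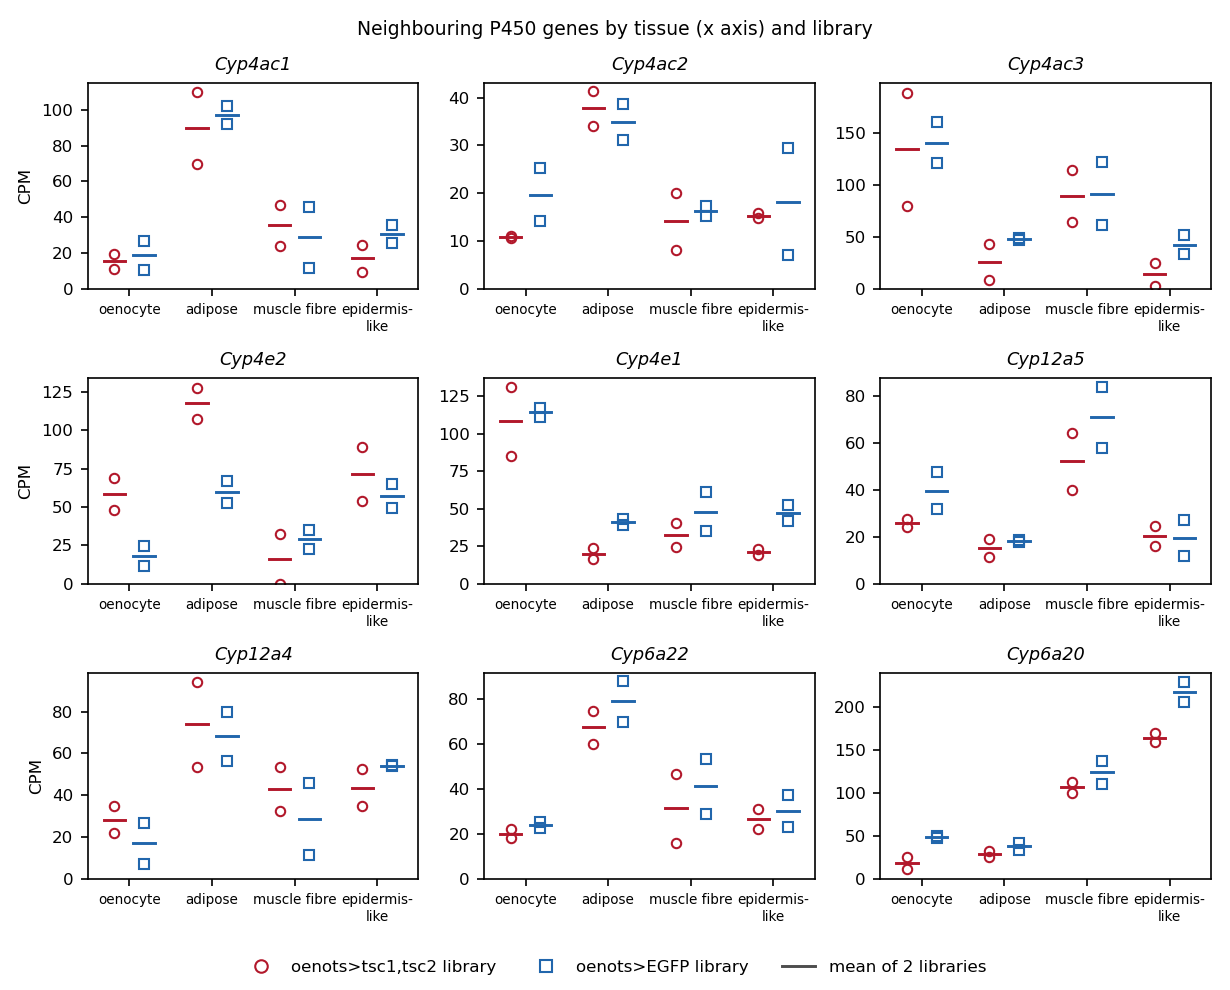
CPM (y axis) of P450 genes from 4 runs of neighbours in each library, by tissue (x axis), with *oenots>tsc1,tsc2* libraries as circles left of *oenots>EGFP* libraries as squares and lines for the mean of 2 libraries. *Cyp4ac1*, *Cyp4ac2* and *Cyp6a22* are highest in adipose nuclei, *Cyp4ac3* and *Cyp4e1* in oenocyte nuclei, *Cyp12a5* in muscle fibre nuclei and *Cyp6a20* in epidermis-like nuclei.

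Some members were also high in small control clusters, and are named here after their values were seen. In the Malpighian tubule-like cluster 9 *Cyp6a18* had 260 and 58.1 CPM in the 2 *oenots>EGFP* libraries, with a mean of at most 9.31 CPM in any other cluster. Cluster 9 held 30759 and 34437 UMIs in these libraries, so the levels of *Cyp6a18* there rest on few UMIs. *Cyp4e2* had 260 and 261 CPM there, and *Cyp12a4* 423 and 145 CPM. In the gut-like cluster 7 *Cyp28d1*, linked to nicotine tolerance, had 262 and 80.7 CPM, and *Cyp6d5* 310 and 222 CPM. *Cyp4p3* had 842 and 197 CPM in cluster 11 and 3047 and 343 CPM in cluster 15, against 80.0 and 65.3 CPM in cluster 3. The second library held 10155 UMIs in cluster 11 and 5837 in cluster 15, so *Cyp4p3* there rests mainly on the first. *Cyp312a1* rested on 1 library, with 866, 1097 and 1265 CPM in clusters 11, 12 and 14 of the first and 0, 103 and 0 CPM in those of the second. These clusters hold few nuclei, and no test was made.

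Between genotypes no P450 gene was called by edgeR in any tissue. In oenocyte nuclei, where the transgenes act, 0 of 34 members tested passed, against 1.27% of 6387 genes called higher and 1.44% called lower in *oenots>tsc1,tsc2*. At an unadjusted p under 0.05 there were 6 members, 2 higher and 4 lower, and 17.7% of all genes. DESeq2 called 1 member, *Cyp6v1*, as lower, where it called 3.15% of all genes higher and 3.48% lower. In adipose nuclei 0 of 64 members and 0% of 8824 genes were called in either direction, with 11 members and 14.3% of all genes at an unadjusted p under 0.05. DESeq2 called 2 members there, *Cyp6a8* and *Cyp4e3*, both higher, and 1.93% of all genes higher and 0.703% lower. In the joint muscle cluster, which holds muscle fibre and epidermis-like nuclei together, 0 of 44 members passed (0.0488% of all genes higher, 0.0326% lower), and in epidermis-like nuclei 0 of 45 (0.0695% higher, 0.0347% lower), and DESeq2 called 0 members in each. There 3 members in the joint muscle cluster and 2 in epidermis-like nuclei had an unadjusted p under 0.05, as did 5.86% and 6.51% of all genes, and DESeq2 called 0.0651% of genes higher and 0.147% lower in the joint muscle cluster and 0.243% higher and 0.122% lower in epidermis-like nuclei. These member counts lie near the shares over all genes. A p that misses the threshold with 2 libraries a side does not show that levels were alike.

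The member nearest to a call in oenocytes was *Cyp6v1*. It had 30.2 and 55.0 CPM in the oenocyte nuclei of *oenots>tsc1,tsc2*, against 209.4 and 183.6 CPM in those of *oenots>EGFP*, and the groups did not overlap. The log2 fold change was -2.29 ± 0.46 (SE, edgeR adjusted p = 0.053). It passed under 7 of 11 alternatives. Among them were DESeq2, no filter (edgeR adjusted p = 3.2e-05), the transferred tissues (edgeR adjusted p = 0.045) and the replicate block, whose numbers pair nothing by the labels. It did not pass with library totals alone or at resolution 0.4. The call also failed without the first and without the second *oenots>tsc1,tsc2* library. In adipose nuclei *Cyp6v1* overlapped between genotypes, with a log2 fold change of -0.49 ± 0.39 (SE, edgeR adjusted p = 0.67). It was -1.22 ± 0.45 in the joint muscle cluster (SE, edgeR adjusted p = 0.67) and -0.93 ± 0.52 in epidermis-like nuclei (SE, edgeR adjusted p = 0.81), the same direction in each, and whether the difference varies between tissues was not tested. Adipose markers in oenocyte nuclei stood at 11.7% and 9.19% of their adipose level in *oenots>tsc1,tsc2* and at 14.04% and 9.90% in *oenots>EGFP*, while *Cyp6v1* stood at 5.37% and 19.9% in *oenots>tsc1,tsc2* and at 32.2% and 40.8% in *oenots>EGFP*. The part of adipose RNA in this difference was not tested.

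Of the other oenocyte members with the largest fitted changes, *Cyp4e2*, *Cyp313a1*, *Cyp6d5*, *Cyp4e3* and *Cyp9b2* had positive log2 fold changes of 1.56, 1.55, 1.08, 0.88 and 0.83. *Cyp6a13*, *Cyp6a20*, *Cyp4d20* and *Cyp12e1* had -1.61, -1.44, -1.12 and -1.04. None of these 9 passed the edgeR test, with adjusted p-values between 0.12 and 0.55. Of them 3 passed under an alternative, *Cyp313a1* with at least 10 counts in every library (adjusted p = 0.020, up to 0.45 over its alternatives), *Cyp4e2* with the replicate block (0.030, up to 0.53) and *Cyp6a13* with no filter or the replicate block (0.028 and 0.049, up to 0.32). *Cyp313a1* had 46.8 and 35.8 CPM in *oenots>tsc1,tsc2*, against 14.9 and 11.8 CPM in *oenots>EGFP*, and *Cyp4e2* 48.3 and 68.7 CPM in *oenots>tsc1,tsc2*, against 11.9 and 24.9 CPM in *oenots>EGFP*. Neither overlapped, and both stood in the same direction in adipose nuclei, by 1.43 for *Cyp313a1* and 0.90 for *Cyp4e2*.

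*Cyp6a8* (2R:14887171-14889010), which many xenobiotics induce, had 139.9 and 60.2 CPM in the adipose nuclei of *oenots>tsc1,tsc2*, against 5.92 and 4.35 CPM in those of *oenots>EGFP*. Its log2 fold change was 4.21 ± 0.48 (SE, edgeR adjusted p = 0.10, unadjusted p = 0.00013), and 4 of 11 alternatives called it, with adjusted p-values between 4.5e-08 and 0.57. In epidermis-like nuclei *Cyp6a8* had 47.4 and 57.3 CPM in *oenots>tsc1,tsc2*, against 14.7 and 18.7 CPM in *oenots>EGFP*, a log2 fold change of 1.80 ± 0.46 (SE, edgeR adjusted p = 0.35) that was called without the first *oenots>tsc1,tsc2* library. Oenocyte nuclei had 33.2 and 8.25 CPM of *Cyp6a8* in *oenots>tsc1,tsc2*, against 1.49 and 2.37 CPM in *oenots>EGFP*, 1 and 2 UMIs in the controls and too few for the test. In all 3 tissues the genotypes did not overlap, and its neighbour *Cyp6a21* had -0.07 ± 0.46 in adipose nuclei (SE, edgeR adjusted p = 0.97).

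*Cyp4e3* had 504.7 and 312.3 CPM in the adipose nuclei of *oenots>tsc1,tsc2*, against 129.8 and 155.0 CPM in those of *oenots>EGFP*, with a log2 fold change of 1.44 ± 0.32 (SE, edgeR adjusted p = 0.15, between 0.0031 and 0.64 over the alternatives). *Cyp4d8* was lower in both *oenots>tsc1,tsc2* libraries in adipose and in epidermis-like nuclei. It had 22.0 and 17.9 CPM in the adipose nuclei of *oenots>tsc1,tsc2*, against 42.5 and 50.2 CPM in those of *oenots>EGFP*, and 29.4 and 22.3 CPM in the epidermis-like nuclei of *oenots>tsc1,tsc2*, against 81.9 and 77.2 CPM in those of *oenots>EGFP*. Neither difference of *Cyp4d8* passed (-1.28 ± 0.29 and -1.41 ± 0.37, SE, edgeR adjusted p = 0.15 and 0.41).

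**Figure D5:**
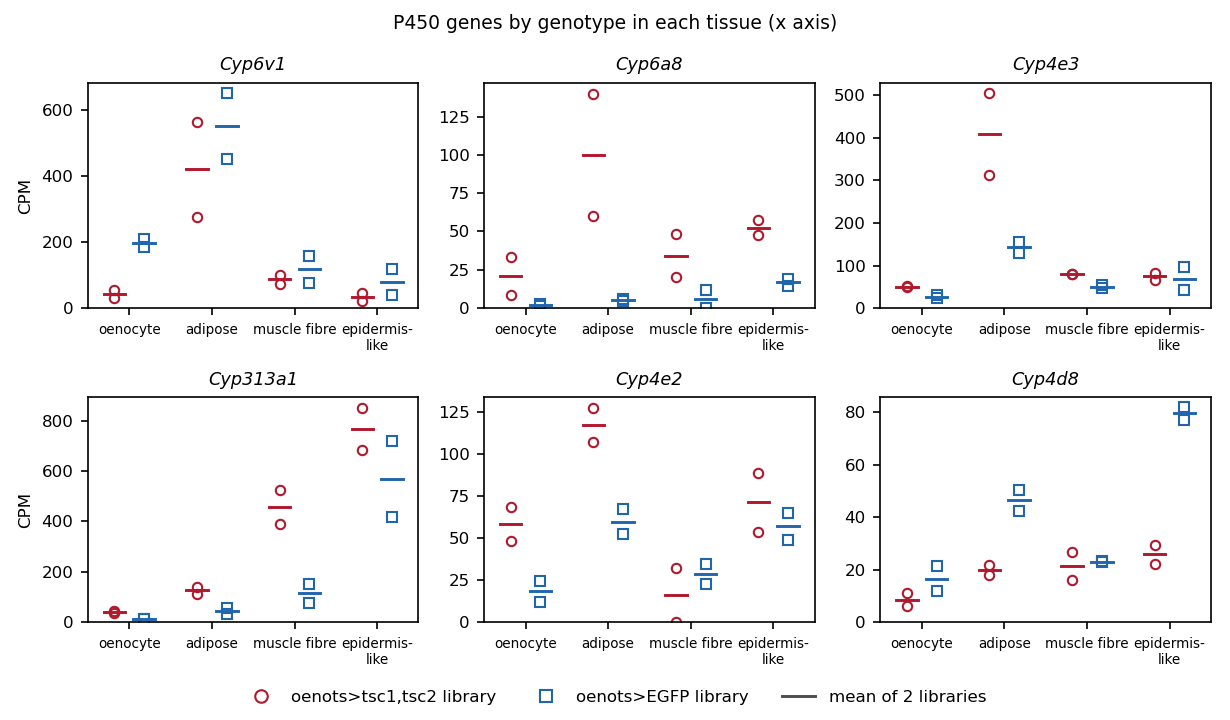
CPM (y axis) of 6 P450 genes in each library by tissue (x axis), with *oenots>tsc1,tsc2* libraries as circles left of *oenots>EGFP* libraries as squares and lines for the mean of 2 libraries. In oenocyte nuclei *Cyp6v1* lies at 30.2 and 55.0 CPM in *oenots>tsc1,tsc2*, against 209.4 and 183.6 CPM in *oenots>EGFP*, and *Cyp6a8* is higher in *oenots>tsc1,tsc2* in each tissue shown.

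Of the genes that serve the family, 1 was called between genotypes, in oenocytes. *FeCH*, the ferrochelatase that inserts iron at the last step of heme synthesis, had 357.8 and 638.0 CPM in the oenocyte nuclei of *oenots>tsc1,tsc2*, against 75.7 and 92.4 CPM in those of *oenots>EGFP*. Its log2 fold change was 2.54 ± 0.48 (SE, edgeR adjusted p = 0.047). Over the alternatives the adjusted p lay between 1.7e-06 and 0.12, and the call was lost without the first *oenots>EGFP* library (2.36) and without the second *oenots>tsc1,tsc2* library (1.81). In adipose nuclei *FeCH* had 49.3 and 78.1 CPM in *oenots>tsc1,tsc2*, against 63.5 and 68.4 CPM in *oenots>EGFP*, with 0.74 ± 0.40 in epidermis-like nuclei and 0.57 ± 0.42 in the joint muscle cluster (SE, edgeR adjusted p = 0.81 and 0.92). Whether the change differs between tissues was not tested. The other 7 heme synthesis genes tested and the 6 electron donors were not called in oenocytes, *Cpr* with 0.82 ± 0.36 (SE, edgeR adjusted p = 0.31).

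The cyclophilin *Cyp1*, taken in by its symbol, had 1966 and 1551 CPM in the epidermis-like nuclei of *oenots>tsc1,tsc2* and 1900 and 2065 CPM in those of *oenots>EGFP*, and was called higher there over the mean of the other tissues by 1.54 ± 0.21 (SE, edgeR adjusted p = 7.4e-06). In oenocyte nuclei *Cyp1* was at 773 ± 203 CPM (SD, n = 4) and was not called against the other tissues (-0.23 ± 0.24, SE, edgeR adjusted p = 0.49), and it was called between genotypes in none of the tissues.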

How the data were processed

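Nuclei of adult male abdomens were counted in 4 libraries, 2 per genotype. The authors made the deposited counts with Cell Ranger 3.1.0 and a reference that includes introns. They then took off ambient RNA with SoupX, assuming the same contamination for all nuclei, dropped nuclei with unusual totals, and clustered the control nuclei with Seurat 3.1.2 and Harmony. The deposited tables hold whole, unscaled UMI counts per gene and nucleus, and 0 columns of other samples were present. No doublet caller was run here, since the authors filtered by total. A uniform subtraction can leave or remove counts of low genes. Total counts per library lay between 1449112 and 3972281 UMIs, which sets the precision of each CPM.

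All nuclei were clustered jointly without Cyp genes (2000 variable genes centred within each library, 30 components, 20 neighbours, random seed 1, Leiden at resolution 0.1; leidenalg 0.10.2, igraph 0.11.9, Python 3.11.15). Clusters were named from marker lists, and deposited control clusters were transferred by the 20 nearest control nuclei. Sums per library and tissue were tested with edgeR 4.0.16 in R 4.3.3 (quasi-likelihood test with TMM factors, filterByExpr, adjusted p by Benjamini and Hochberg, threshold 0.05), with the genotype as covariate between tissues. The epidermis-like contrasts use the transferred tissues, whose deposited clusters were made with the Cyp genes included, so their p-values are not independent of the assignment. An SE is the log2 fold change over the root of its F statistic. Each library is a pool, and nothing in the labels says whether pools came from separate cultures, so p-values measure the spread between these samples. The 2 libraries of a genotype differed beyond sampling noise.

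Members and lists were chosen with earlier results of these data known. Named genes were members at a mean of at least 100 CPM in a control tissue, the highest member of each deposited cluster (at least 5 counts in each library), members called between genotypes, the 5 largest fitted changes each way in oenocytes, and the partner lists. *Cyp6a8*, *Cyp4d8*, *Cyp4p1*, *Cyp4d21*, *Cyp318a1*, *Cyp12b2*, *Cyp49a1*, the neighbour pairs and the members of small clusters were chosen after their values were seen. Alternatives were DESeq2 1.42.0, library totals alone, no filter, at least 10 counts in every sum, the replicate or library as block, other tissue assignments, each genotype's libraries alone, each library left out, and nuclei thinned to 200 UMIs. Tissues of a library come from the same animals, and their deviations correlated at 0.23 to 0.62, so the library pairs those sums. The contrast with muscle fibres and the *oenots>tsc1,tsc2* libraries alone were added after seeing the data. The scripts were tested on simulated data. Coordinates are of Release 6 of the fly genome.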

Additional observations from a re-analysis of the deposited data

Results flagged for a closer look

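Named genes were looked at for tissues in which both *oenots>tsc1,tsc2* libraries lay above both *oenots>EGFP* libraries in one and below them in another. The difference itself was not tested in any of these cases, and values below are log2 ratios of the genotype means. The genes looked at were the 5 largest fitted changes each way in oenocytes, with *Cyp6a8*, *Cyp4d8*, *FeCH* and *Cpr*. How often all genes show such a pattern was not counted, and with 2 libraries a side it can arise by chance. The joint muscle cluster also holds epidermis-like nuclei, so its values and theirs are not separate. For *Cpr* the ratio was 0.87 in oenocyte nuclei and -0.85 in the joint muscle cluster, a difference of 1.71, and against -0.58 in epidermis-like nuclei the difference was 1.45. *Cyp6d5* had 1.14 in oenocyte nuclei and -0.25 in the joint muscle cluster, a difference of 1.39, and 1.54 was the difference against epidermis-like nuclei. *Cyp9b2* had 0.92 in oenocyte nuclei and 0.72 in adipose nuclei, with -0.41 in the joint muscle cluster and -0.51 in epidermis-like nuclei. Its differences were 1.33 and 1.42 for oenocytes against these tissues, and 1.13 and 1.22 for adipose nuclei. None of *Cpr*, *Cyp6d5* and *Cyp9b2* was called between genotypes by edgeR in any of these tissues.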

How the results depend on the processing

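Counts of P450 genes called between genotypes (0 in each tissue with edgeR) moved in oenocytes to 1 with DESeq2, 3 with no filter, 2 with at least 10 counts in every library, 3 with the replicate block and 1 with the transferred tissues, and in adipose nuclei to 2 with DESeq2 and 1 with no filter, with at least 10 counts or with the replicate block. Leaving out 1 library gave 0 to 1 in oenocytes, 0 to 1 in the joint muscle cluster (1 without the first *oenots>tsc1,tsc2* library) and 0 to 2 in epidermis-like nuclei (2 without it). Replicate numbers pair nothing by the labels, and deviations of same-numbered libraries correlated at 0.13 to 0.35 over 2 pairs. Between tissues, asking for at least 10 counts in every sum left 6 calls in oenocytes (35 otherwise), 6 in adipose nuclei (27), 4 in the joint muscle cluster (22), 2 in epidermis-like nuclei (25) and 2 against muscle fibres (17), since fewer genes were tested. The *oenots>tsc1,tsc2* libraries alone gave 19 in oenocytes, 11 in adipose nuclei and 14 in the joint muscle cluster, where the transferred tissues gave 6. Without 1 library the calls against muscle fibres ranged between 9 (without the first *oenots>EGFP* library) and 16, with 11 without the second. The library block changed no count of calls between tissues by over 1.5 times. Of the named values, *Cyp4g15* in adipose nuclei turned to -0.49 with the transferred tissues and -0.58 at resolution 0.4, and *Cyp6a23* and *Cyp6d5* in muscle turned to -0.18 and -1.04 with the transferred tissues. The cause was not tested. Of 758 alternatives for 66 named values between tissues, 712 kept the call and its direction. Resolution 0.4 gave no epidermis-like cluster and so no value.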
